A study of Mus musculus with 3 samples.

Results

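A total of 31 genes that make, conjugate, move and regulate bile acids were followed through single-nuclei RNA sequencing (sNuc-Seq) of mouse liver. They were chosen by name, and all 31 were present among the 32285 genes of the count tables. One library was made from each of 3 male C57BL/6 J mice. The ND mouse received a normal diet and is labelled normal. The STZ-HFHC mice are labelled as MASH-related liver fibrosis, where MASH is metabolic dysfunction-associated steatohepatitis. They were injected subcutaneously with 0.2 mg of streptozotocin (STZ), a toxin of insulin-producing islet cells, at 3 days of age, and were fed a diet rich in fat and cholesterol (HFHC) from 4 weeks of age. The age at which these mice were sampled is not given in the sources used here. The ND group held 1 mouse and the STZ-HFHC group 2, so no spread between ND mice could be measured, and the effect of STZ cannot be told apart from that of the diet. The sample codes of the labels also begin differently for the ND library and for both STZ-HFHC libraries, so that a batch of libraries, if there was one, cannot be told apart from the condition.

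Bile acids are made from cholesterol in hepatocytes, by a classical pathway that starts with hydroxylation of the sterol ring and an alternative pathway that starts with oxidation of the side chain. They are conjugated to taurine or glycine, pumped into the bile canaliculus, taken up again from portal blood, and sensed by the nuclear receptor FXR, which restrains their synthesis. In cholestasis, export from the hepatocyte back into sinusoidal blood is a known relief route.

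Nuclei were grouped by clustering without the 31 genes and 34 other bile acid genes, and clusters were named from fixed marker lists. Hepatocyte-like nuclei numbered 4547 of the 8494 ND nuclei, and 2896 of 8921 and 4692 of 10921 in the STZ-HFHC libraries 1 and 2. Their summed counts of unique molecular identifiers (UMIs, which count RNA molecules) were 21846631, 25726025 and 34718976, with medians of 4099, 8026.5 and 6556 UMIs per nucleus. The 10 hepatocyte markers were all detected and summed to between 15482 and 19635 CPM, which is each gene's UMIs scaled to the total of those nuclei in the usual unit. This sum rested on Cps1, a urea cycle enzyme, at 7361, 8066 and 10196 CPM in ND, STZ-HFHC 1 and STZ-HFHC 2, and the other 9 markers summed to 12273, 7417 and 6319 CPM, lower in both STZ-HFHC mice like most members. The conditions lay in separate clusters: clusters 2 and 15 held 3777 and 738 of the ND nuclei, and clusters 1, 3 and 14 held nearly all of the STZ-HFHC nuclei. Cluster 1, the largest in STZ-HFHC, had the T cell gene Themis among its 10 leading genes. No hepatocyte-like cluster of either condition had a hepatocyte marker among its 10. In hepatocyte-like nuclei of ND, STZ-HFHC 1 and STZ-HFHC 2, the T and NK cell markers summed to 46.0, 289 and 364 CPM, and to 18.3, 23.2 and 32.8 CPM without Themis. Cholangiocyte markers summed to 129, 440 and 207 CPM, or 20.7, 182 and 51.8 without Pkhd1, and macrophage markers to 65.3, 116 and 102 CPM. These sums were higher in both STZ-HFHC mice, as were Abcc4 and Cyp2c70, and their part in the results was not tested. Endothelial markers summed to 318, 269 and 309 CPM, lower in both STZ-HFHC mice. Stellate markers summed to 62.5, 65.7 and 53.3 CPM, higher in 1 mouse and lower in the other. Hepatocyte RNA was present in droplets of every class, with marker sums in the other classes of 0.482 to 1.01 times those in hepatocyte-like nuclei. Libraries shared between 20 and 27 barcodes pairwise.

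In hepatocyte-like nuclei, genes that commit cholesterol to bile acids and the pump that exports them were lower in both STZ-HFHC mice than in ND, and the basolateral exporter Abcc4 and the muricholic acid enzyme Cyp2c70 were higher. Cyp8b1 was 11.8-fold and 4.49-fold lower, Cyp7a1 3.51-fold and 2.51-fold, Slc27a5 2.81-fold and 2.05-fold, Abcb11 2.17-fold and 2.88-fold, and Cyp27a1 2.10-fold and 2.07-fold, in STZ-HFHC 1 and 2. Abcc4 was 26.6-fold and 12.5-fold higher, and Cyp2c70 6.60-fold and 3.42-fold. These 5 lower and 2 higher genes were the members at least 2-fold apart from ND in both mice, among 29 members with at least 50 UMIs. Of all 14720 genes with as many UMIs, 4.78% were lower and 8.44% higher by the same rule (13.2% in either direction), which involves no test.

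No member passed edgeR's quasi-likelihood test at a Benjamini-Hochberg adjusted p of 0.05 over 16404 genes, of which 1.18% passed in either direction. The lowest adjusted p among members was 0.054, for Abcc4. At an unadjusted p under 0.05, 19 members qualified, 4 higher and 15 lower, against 20.6% of all genes tested. DESeq2 called 10 members at an adjusted p of 0.05, 3 higher and 7 lower, against 6.85% of 14007 genes. In edgeR the only spread was that between the 2 STZ-HFHC mice, moderated with that of other genes. The ND mouse was assumed to vary like the STZ-HFHC mice. Without cluster 1, a set chosen after the clusters were seen, edgeR called 3 members higher and 4 lower, against 1.81% and 1.94% of 15599 genes, and 3 higher and 4 lower members met the 2-fold rule, against 6.34% and 4.92% of 13484.

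Of the 29 members with at least 50 UMIs, 20 were lower in both mice, 6 were higher in both and 3 had opposite signs, whereas 34.8% of all such genes were lower and 48.4% higher in both. The median log2 ratio to ND of the 29 members, averaged over both mice, was -0.55, beside 0.10 for all genes with at least 50 UMIs. Hepatocyte markers other than Cps1 were lower too, with sums of 7417 and 6319 CPM for the STZ-HFHC mice, below the 12273 of ND. Members were not tested against other hepatocyte genes, so their lower median and counts cannot be read as particular to bile acid genes. Scaling by median of ratios in place of totals moved the median of all genes by -0.11 and that of the members to -0.66. Under that scaling Acox2 and Abcb4 became lower in both mice and Abcc2 took opposite signs. The plot of ratios by mouse shows these values gene by gene.

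**Figure D1:**
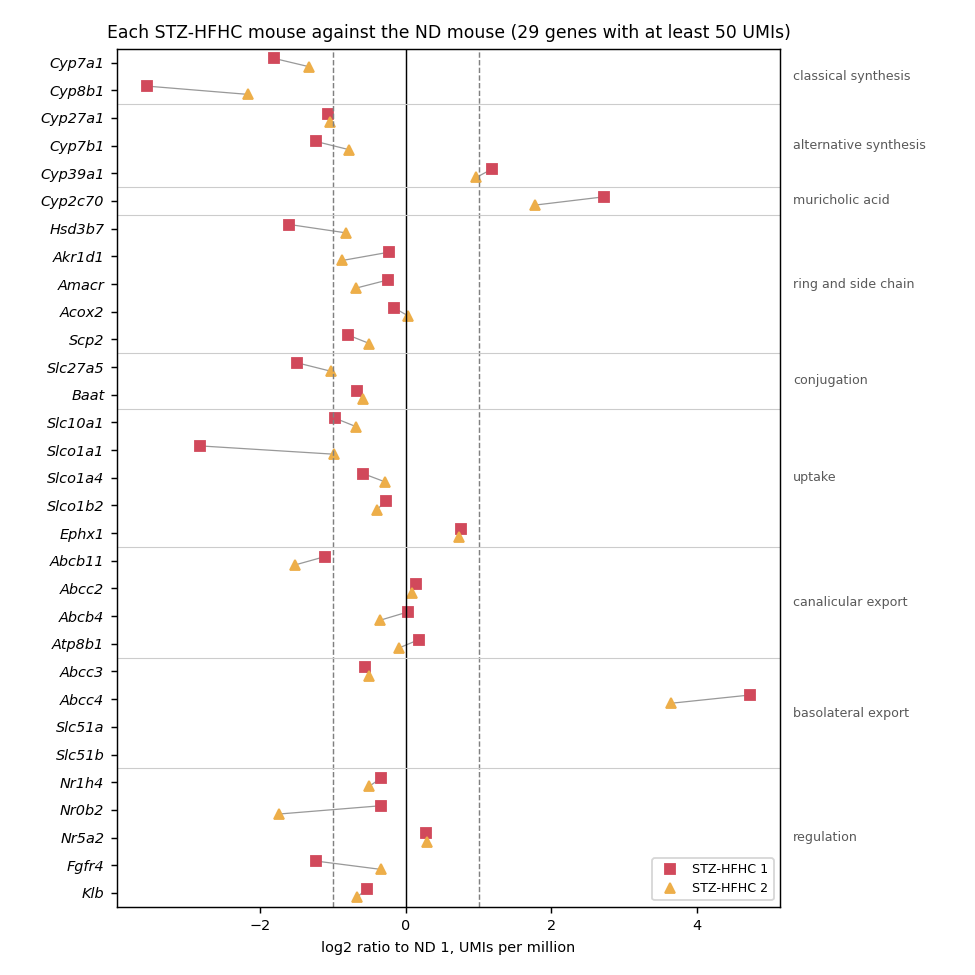
Log2 ratio of CPM in hepatocyte-like nuclei of each STZ-HFHC mouse to the ND mouse, for 29 genes grouped by role, with dashed lines at a 2-fold difference (log2 ratios of -1 and 1). Abcc4 stands apart on the right at 4.73 and 3.64, and Cyp8b1 lies farthest to the left in the average of both mice, at -3.56 and -2.17.

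Promoters are shown for the genes at least 2-fold apart in both mice, since these carry the comparison. Of the 31 members, 23 had an entry in the RefSeq promoter sequences of build GRCm38.p6, among them 5 of these 7 genes. Each sequence is the 250 bases before the RefSeq start of the gene, written 5′ to 3′ along the gene's own strand. Capitals mark AGGTCA, the half-site bound by many nuclear receptors, CAAAGTCCA, a core of HNF4A sites, or TGACNNNGC, the antioxidant response core, on either strand. They lie at chr9:121916306-121916555 (Cyp8b1, minus strand), chr1:74713285-74713534 (Cyp27a1, plus strand), chr2:69342617-69342866 (Abcb11, minus strand), chr19:40187287-40187536 (Cyp2c70, minus strand) and chr14:118706220-118706469 (Abcc4, minus strand). Against the GENCODE M21 gene models on the same build, from which gene coordinates are given here, the Cyp27a1 window ends 39 bases before the gene, the Cyp2c70 window reaches 47 bases into it, and the other windows end at its start.
Cyp8b1: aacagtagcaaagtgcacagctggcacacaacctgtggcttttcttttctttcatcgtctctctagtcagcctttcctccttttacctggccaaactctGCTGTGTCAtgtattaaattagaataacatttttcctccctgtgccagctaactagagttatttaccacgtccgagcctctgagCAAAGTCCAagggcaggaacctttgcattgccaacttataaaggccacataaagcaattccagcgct
Cyp27a1: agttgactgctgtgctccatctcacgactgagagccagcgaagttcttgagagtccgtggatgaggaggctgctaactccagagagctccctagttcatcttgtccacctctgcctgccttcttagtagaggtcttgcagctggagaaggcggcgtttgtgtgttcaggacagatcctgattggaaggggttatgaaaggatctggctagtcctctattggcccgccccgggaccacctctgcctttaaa
Abcb11: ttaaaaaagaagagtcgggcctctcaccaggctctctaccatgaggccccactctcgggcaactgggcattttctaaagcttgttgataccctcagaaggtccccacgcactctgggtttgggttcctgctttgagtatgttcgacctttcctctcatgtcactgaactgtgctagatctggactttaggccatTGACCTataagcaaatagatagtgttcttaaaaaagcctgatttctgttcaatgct
Cyp2c70: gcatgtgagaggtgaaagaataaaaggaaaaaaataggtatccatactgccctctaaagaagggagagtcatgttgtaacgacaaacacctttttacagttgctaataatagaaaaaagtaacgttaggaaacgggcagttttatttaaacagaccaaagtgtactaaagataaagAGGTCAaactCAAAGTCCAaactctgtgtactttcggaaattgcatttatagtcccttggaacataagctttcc
Abcc4: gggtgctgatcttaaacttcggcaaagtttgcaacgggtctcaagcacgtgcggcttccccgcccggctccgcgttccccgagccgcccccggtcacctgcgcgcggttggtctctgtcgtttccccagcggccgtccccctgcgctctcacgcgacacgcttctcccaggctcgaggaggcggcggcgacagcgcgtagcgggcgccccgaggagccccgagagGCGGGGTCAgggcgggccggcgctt

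The sequences differed in composition, from 36.0% G and C for Cyp2c70 to 72.0% for Abcc4. The core CAAAGTCCA was found before Cyp8b1 and Cyp2c70, of which one was lower and the other higher in both mice, and in 126 of 32851 promoters in all (0.384%). The half-site AGGTCA was found in 11 of the 23 member promoters and in 14% of all promoters. Its longer form AAGGTCA, the element of NR5A2, was found before Slco1a1 and Abcc2 and in 4.08% of all promoters, and every such match contains the half-site. The core TGACNNNGC was found before 5 members, Abcc4 and Cyp8b1 included, and in 10.2% of all promoters. The inverted repeat AGGTCANTGACCT, bound by FXR, was in 0 of the 23 windows and in 2 of all 32851. Only exact matches to these letters were counted, so a count of 0 does not exclude inexact forms of an element. The Abcb11 window holds an inexact form of the inverted repeat, which includes its marked half-site and was not counted. A match describes the letters of this window and does not show binding.

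In the classical pathway, both enzymes were lower in both STZ-HFHC mice. Cyp7a1 (chromosome 4, 6265612 to 6275633, minus strand) encodes the cholesterol hydroxylase that starts the pathway and limits its rate. Its level was 294 CPM in ND (95% exact Poisson interval 287 to 302), 84.0 in STZ-HFHC 1 (80.5 to 87.6) and 117 in STZ-HFHC 2 (114 to 121). The STZ-HFHC libraries lay below the ND library without overlap of these intervals, which cover counting error only. The mean log2 ratio was -1.57 ± 0.34 (SD, n = 2), with an edgeR adjusted p of 0.060. Cyp8b1 (chromosome 9, 121914356 to 121916305, minus strand) encodes the sterol hydroxylase that directs synthesis to cholic acid. Its level was 45.1 CPM in ND (42.3 to 48.0), 3.81 in STZ-HFHC 1 (3.09 to 4.64) and 10.0 in STZ-HFHC 2 (8.998 to 11.1). Both mice lay far below ND but also differed from each other, and the mean log2 ratio was -2.86 ± 0.98 (SD, n = 2), with an edgeR adjusted p of 0.086.

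In the alternative pathway, Cyp27a1 and Cyp7b1 were lower in both mice and Cyp39a1 was higher. Cyp27a1 (chromosome 1, 74713574 to 74737892, plus strand), the mitochondrial sterol hydroxylase that oxidizes the side chain, stood at 247 CPM in ND and at 118 and 120 in STZ-HFHC 1 and 2. The 2 STZ-HFHC values were nearly equal, so its mean log2 ratio had a small spread, -1.06 ± 0.02 (SD, n = 2), with an edgeR adjusted p of 0.062. Cyp7b1, the oxysterol hydroxylase of this pathway, stood at 673, 286 and 393 CPM in the same order. Cyp39a1, which hydroxylates oxysterols formed elsewhere, stood at 43.7 CPM in ND and at 99.2 and 85.4 in STZ-HFHC 1 and 2. It was 2.27-fold and 1.95-fold higher than in ND, just short of the 2-fold rule, whereas Cyp27a1 was just inside it. The edgeR adjusted p was 0.111 for Cyp7b1 and 0.112 for Cyp39a1.

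Cyp2c70 (chromosome 19, 40153353 to 40187333, minus strand) forms the muricholic acids, hydrophilic bile acids of mice. It stood at 13.9 CPM in ND (12.4 to 15.5), 91.7 in STZ-HFHC 1 (88.1 to 95.5) and 47.4 in STZ-HFHC 2 (45.2 to 49.8). Both STZ-HFHC mice were above ND, with a mean log2 ratio of 2.25 ± 0.67 (SD, n = 2) and an edgeR adjusted p of 0.102.

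The 5 genes that modify the ring and shorten the side chain included none at least 2-fold apart in both mice. Hsd3b7, a dehydrogenase of the sterol ring common to both pathways, stood at 200 CPM in ND and at 66.0 and 113 in STZ-HFHC 1 and 2. Akr1d1, the reductase of the ring's double bond, stood at 190, 162 and 103 CPM, and Amacr, the racemase of the side chain, at 60.9, 51.5 and 37.8. The STZ-HFHC mouse with the lower level was mouse 1 for Hsd3b7 and mouse 2 for Akr1d1 and Amacr. Scp2, which encodes a sterol carrier protein and the peroxisomal thiolase of side-chain shortening, stood at 1470, 850 and 1038 CPM. Acox2, the peroxisomal oxidase of branched side chains, stood at 302, 269 and 308 CPM, with STZ-HFHC 2 within the ND interval of 295 to 309. The edgeR adjusted p of these 5 genes ranged from 0.139 for Hsd3b7 to 0.633 for Acox2.

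Both conjugation genes were lower in both mice. Slc27a5 (chromosome 7, 12988346 to 12998192, minus strand) encodes the bile acid CoA ligase that activates bile acids for conjugation. It stood at 51.5 CPM in ND (48.5 to 54.6), 18.3 in STZ-HFHC 1 (16.7 to 20.04) and 25.1 in STZ-HFHC 2 (23.5 to 26.9). Its mean log2 ratio was -1.26 ± 0.32 (SD, n = 2), with an edgeR adjusted p of 0.089. Baat, the transferase that joins bile acids to taurine or glycine, stood at 223, 140 and 148 CPM, with a mean log2 ratio of -0.63 ± 0.06 (SD, n = 2) and an edgeR adjusted p of 0.126.

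Of the 5 uptake genes, 4 were lower in both mice and Ephx1 was higher. Slc10a1, the sodium-dependent carrier of conjugated bile acids, stood at 136 CPM in ND and at 69.4 and 84.6 in STZ-HFHC 1 and 2. Slco1a1, an organic anion carrier of the sinusoidal membrane, stood at 264 CPM in ND and at 37.2 and 133 in STZ-HFHC 1 and 2. The STZ-HFHC mice disagreed most on this gene: its log2 ratios of -2.83 and -0.98 gave an SD of 1.30, the largest among the 29 members. Slco1a4 and Slco1b2, carriers of the same family, stood at 303, 202 and 249 CPM and at 2190, 1805 and 1662 CPM. Ephx1, the microsomal epoxide hydrolase that has also been linked to bile acid uptake, stood at 92.1, 157 and 152 CPM. The edgeR adjusted p of the 5 uptake genes lay between 0.107 for Slc10a1 and 0.305 for Slco1b2. How reads shared between similar Slco genes were counted is not given in the sources used here, so the counts of these genes are uncertain to that extent.

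Among the canalicular exporters, only Abcb11 was at least 2-fold apart in both mice. Abcb11 (chromosome 2, 69238282 to 69342616, minus strand) encodes the bile salt export pump, which moves conjugated bile acids into bile. It stood at 1252 CPM in ND (1238 to 1267), 578 in STZ-HFHC 1 (569 to 588) and 436 in STZ-HFHC 2 (429 to 443). Its mean log2 ratio was -1.32 ± 0.29 (SD, n = 2), with an edgeR adjusted p of 0.079. Abcc2, the pump of bilirubin and other conjugates, stood at 1843, 2038 and 1953 CPM. Abcb4, which moves phosphatidylcholine into bile, stood at 1677, 1706 and 1309 CPM, and Atp8b1, a flippase of the canalicular membrane, at 149, 169 and 140. For Abcb4 and Atp8b1 the ND value lay between those of the STZ-HFHC mice, and the edgeR adjusted p of these 3 genes ranged from 0.582 to 0.994.

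The basolateral exporters differed in direction. Abcc4 (chromosome 14, 118482692 to 118706219, minus strand) exports bile acids and other organic anions into sinusoidal blood. It stood at 7.60 CPM in ND (6.49 to 8.85), 202 in STZ-HFHC 1 (197 to 208) and 95.02 in STZ-HFHC 2 (91.8 to 98.3). Both STZ-HFHC mice were above ND and also differed from each other, with a mean log2 ratio of 4.19 ± 0.77 (SD, n = 2) and an edgeR adjusted p of 0.054. Abcc3, the related exporter of glucuronide conjugates, stood at 215 CPM in ND and at 145 and 151 in STZ-HFHC 1 and 2, with an edgeR adjusted p of 0.151. Slc51a and Slc51b encode the subunits of one transporter, and neither reached 50 UMIs: Slc51a had 8, 2 and 3 UMIs and Slc51b 2, 3 and 6 in ND, STZ-HFHC 1 and STZ-HFHC 2. At this depth no difference in either could be shown.

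None of the 5 regulators was at least 2-fold apart in both mice. Nr1h4 encodes FXR, the bile acid sensor, and stood at 1113 CPM in ND and at 880 and 784 in STZ-HFHC 1 and 2. Nr0b2, the corepressor induced by FXR, stood at 57.3, 45.2 and 17.1 CPM, so that its ratio rested mostly on mouse 2, with log2 ratios of -0.34 and -1.75. Nr5a2, a nuclear receptor that acts on Cyp7a1 and Cyp8b1, stood at 387, 467 and 473 CPM. Fgfr4 and its partner Klb form the hepatocyte receptor for the intestinal hormone that restrains bile acid synthesis. Fgfr4 stood at 61.1, 26.0 and 48.1 CPM, and Klb at 112, 77.5 and 70.6. The edgeR adjusted p of these 5 genes lay between 0.145 for Klb and 0.634 for Nr5a2. The plot of levels by library sets all 31 members side by side.

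**Figure D2:**
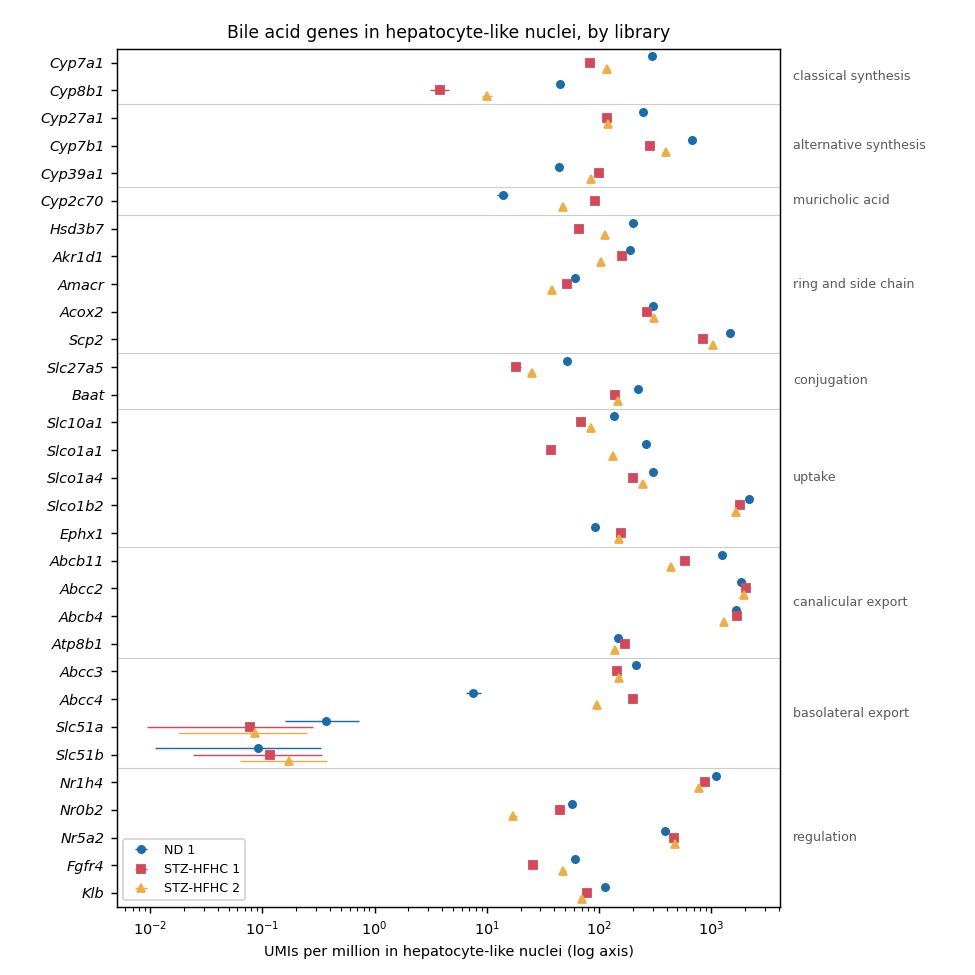
Levels of the 31 genes in hepatocyte-like nuclei in CPM on a log axis, 1 point per library, with bars for the 95% exact Poisson interval, which is narrower than the point for most genes. Abcc4 and Cyp8b1 show the widest gaps between ND and STZ-HFHC, and Slc51a and Slc51b lie under 1 CPM with overlapping intervals.

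Of 34 other genes of bile acid and sterol handling, 29 were tested. In the same edgeR fit 1 rose and 2 fell, where 0.573% and 0.61% of all 16404 genes did. Abcg5, a subunit of the canalicular sterol exporter, rose from 36.8 CPM in ND to 353 and 524 in STZ-HFHC 1 and 2, with an adjusted p of 0.034. Its partner Abcg8 stood at 80.2, 214 and 640 CPM, with an edgeR adjusted p of 0.174. Nr1i3, the xenobiotic receptor CAR, fell from 637 CPM to 176 and 199, with an edgeR adjusted p of 0.035. Sult2a8, a sulfotransferase of bile acids in mouse liver, fell from 1433 CPM to 173 and 282, with an edgeR adjusted p of 0.042. Fgfr1 and the drug exporter Abcb1a also met the 2-fold rule as higher, and the ileal bile acid carrier Slc10a2 as lower, without passing the test. By this rule 4 of the 29 genes were higher and 3 lower, against 8.44% and 4.78% of all genes with at least 50 UMIs. The median log2 ratio of this list, averaged over both mice, was -0.14.

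Since the conditions lay in separate clusters, the members were also compared between clusters that share a leading gene. Clusters 15 (738 ND nuclei) and 14 (263 and 480 STZ-HFHC nuclei) had Glul, the glutamine synthetase of hepatocytes next to the central vein, among their 10 leading genes. In these, Cyp7a1 stood at 462 CPM in ND (440 to 486), 365 in STZ-HFHC 1 (342 to 390) and 380 in STZ-HFHC 2 (359 to 401). In the other large clusters it stood at 263 CPM in cluster 2 of ND, at 63.1 and 24.2 in clusters 1 and 3 of STZ-HFHC 1, and at 113 and 61.4 in clusters 1 and 3 of STZ-HFHC 2. The Cyp7a1 gap to ND was thus 1.26-fold and 1.22-fold where Glul led. Over the other large clusters it was 4.84-fold and 2.96-fold, and the difference between these gaps was not tested. The Glul-led clusters held 738 of 4547 hepatocyte-like nuclei for ND, against 263 of 2896 and 480 of 4692 for STZ-HFHC 1 and 2. Whether they cover the same part of the lobule was not tested. In the pericentral group by position score, described below, Cyp7a1 was 175 and 218 CPM for the STZ-HFHC mice, beside 457 for ND.

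Among the large clusters of each library, Abcc4 was also highest in those led by Glul. It stood at 21.6 CPM in cluster 15 of ND, and at 499 and 442 in cluster 14 of STZ-HFHC 1 and 2. Outside the Glul-led clusters it stood at 4.70 CPM in cluster 2 of ND, at 213 and 88.0 in cluster 1 of the STZ-HFHC mice, and at 27.1 and 23.1 in their cluster 3. Every STZ-HFHC cluster was above every large ND cluster, although cluster 3 came close to cluster 15, whose interval ran from 16.9 to 27.1. Cyp8b1 did not share this dependence, with 39.3 CPM in cluster 15 and 46.2 in cluster 2 of ND against 3.68 to 13.1 in clusters 1, 3 and 14 of the STZ-HFHC mice. Cyp2c70 was highest in cluster 3, at 180 and 80.5 CPM in STZ-HFHC 1 and 2.

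Within the Glul-led clusters 2 members were at least 2-fold higher and 2 at least 2-fold lower in both mice, where 3.98% and 3.54% of all genes were. The higher ones were Abcc4 and Cyp2c70, and the lower ones Cyp8b1 and Slco1a1. An edgeR fit on these nuclei, chosen after the clusters were seen, called Abcc4 (adjusted p = 1.12e-06) and Cyp2c70 (0.00803) higher, and 7 members lower: Cyp8b1 (0.00646), Abcc3 (0.0149), Abcb11 (0.0155), Slco1a1 (0.0170), Cyp7b1 (0.0204), Cyp27a1 (0.0268) and Hsd3b7 (0.0287). Of all 12159 genes in that fit, 2.34% were called higher and 2.99% lower. Cyp7a1 was not called there (adjusted p = 0.454). Slco1b2, lower in both mice over all hepatocyte-like nuclei, was higher in both here, with log2 ratios of 0.30 and 0.06, and Akr1d1, Amacr, Slco1a4, Nr0b2 and Klb took opposite signs. In the corresponding edgeR fit on the other large clusters, Abcc4 was higher (adjusted p = 0.044), and Cyp7a1 (0.034), Cyp27a1 (0.042), Abcb11 (0.043) and Cyp8b1 (0.046) were lower, where 1.27% and 1.51% of 16252 genes were called. There 2 members were at least 2-fold higher in both mice and 5 lower, against 8.83% and 4.79% of all genes. The plot of levels by cluster shows 8 of these genes.

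**Figure D3:**
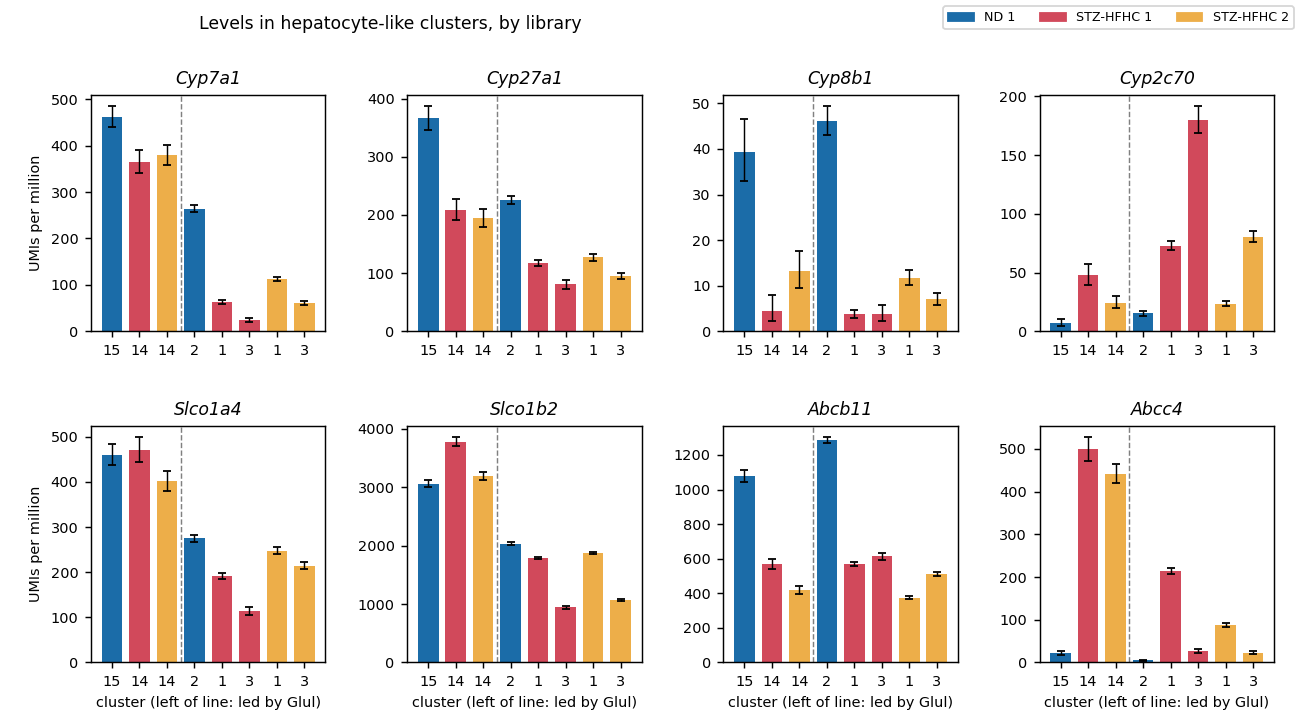
Levels in CPM (bars from 0, with 95% exact Poisson intervals) of 8 genes in the large hepatocyte-like clusters of each library. Left of the dashed line are the clusters led by Glul, 15 in ND and 14 in STZ-HFHC, where Cyp7a1 lies between 365 and 462 CPM in all 3 libraries. To the right are cluster 2 of ND and clusters 1 and 3 of STZ-HFHC.

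Position along the liver lobule was also scored in each hepatocyte-like nucleus, as pericentral minus periportal markers, none of which is a member. Within each library the nuclei were split by this score into 3 equal groups, and the pericentral group was compared with the periportal group. The score is a range, and between 268 and 427 nuclei per library lay close to a limit. Of the 31 members, 5 were at least 1.5-fold higher in the pericentral group in all 3 libraries, against 3.62% of all genes, and 2 were higher in the periportal group, against 1.85%.

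Cyp7a1 was pericentral in every library: 457 against 134 CPM in ND, 175 against 26.9 in STZ-HFHC 1 and 218 against 53.4 in STZ-HFHC 2. Abcc4 was pericentral as well, at 14.2 against 5.27 CPM in ND, 305 against 48.9 in STZ-HFHC 1 and 227 against 22.7 in STZ-HFHC 2. The remaining pericentral members were Slco1b2, Slco1a4 and Cyp27a1, with mean log2 ratios between the groups of 1.25 ± 0.16, 0.88 ± 0.32 and 0.84 ± 0.16 (SD, n = 3). Cyp39a1 and Cyp2c70 were the periportal members. Cyp39a1 stood at 19.0 against 66.5 CPM in ND, 58.6 against 142 in STZ-HFHC 1 and 36.7 against 133 in STZ-HFHC 2, pericentral group first. Cyp2c70 stood at 8.44 against 15.5, 56.5 against 141 and 21.9 against 74.5 CPM. These zone differences were not tested. Cyp8b1, at 48.5 against 42.4 CPM in ND and 3.74 against 3.70 in STZ-HFHC 1, showed no such gradient in those libraries, whereas in STZ-HFHC 2 it stood at 14.5 against 7.06.

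**Figure D4:**
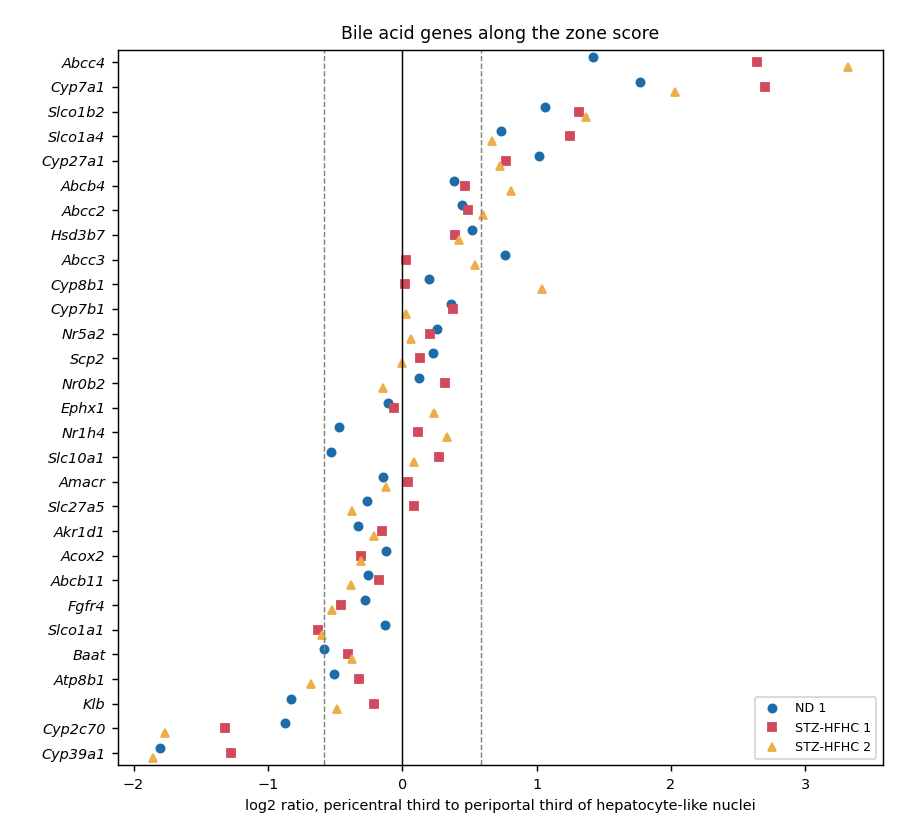
Log2 ratio of CPM between the pericentral and the periportal group of hepatocyte-like nuclei for 29 genes, 1 point per library, ordered by the mean, with dashed lines at a 1.5-fold difference. Abcc4, Cyp7a1, Slco1b2, Slco1a4 and Cyp27a1 lie to the right of the line in all 3 libraries, and Cyp2c70 and Cyp39a1 to the left.

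Outside hepatocyte-like nuclei, nearly all members tracked the hepatocyte RNA found in every class. Each gene's level relative to hepatocyte-like nuclei of the same library was divided by the same ratio for the summed hepatocyte markers, so that RNA from hepatocytes alone would give about 1. Of 426 values with at least 50 UMIs, 396 lay within 1.5-fold of 1, 20 were above and 10 below. These values repeat the same genes over classes and libraries, and the share for all genes is not given here. The counts therefore cannot be read as particular to the members. The 20 values above were mostly of Abcc4, Nr1h4, Atp8b1 and Abcc3, described below. In STZ-HFHC 1 they also included Hsd3b7 in macrophage-like, Cyp27a1 in monocyte-like and Scp2 in stellate-like nuclei. Scp2 and Nr5a2 were above in cholangiocyte-like nuclei of STZ-HFHC 1, and Cyp8b1 in endothelial-like nuclei of STZ-HFHC 2.

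Nr1h4 stood out in stellate-like nuclei, the fat-storing pericytes of the sinusoid. It stood there at 1170 CPM in ND (1145 to 1196), 1008 in STZ-HFHC 1 (964 to 1054) and 1071 in STZ-HFHC 2 (1039 to 1104), with normalised ratios of 1.21, 2.36 and 2.42. In macrophage-like nuclei of the same libraries its ratios were 0.98, 0.88 and 0.82. Atp8b1 gave 1.12, 1.76 and 1.65 in stellate-like nuclei. Because hepatocyte RNA filled more of the ND droplets, with a marker ratio of 0.872 in stellate-like nuclei of ND against 0.486 and 0.565 in STZ-HFHC, the ratios cannot be compared between the conditions as levels of the stellate-like nuclei themselves.

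Abcc4 exceeded hepatocyte RNA in endothelial-like nuclei of all 3 libraries, at 36.1 CPM in ND and at 225 and 145 in STZ-HFHC 1 and 2, with ratios of 5.12, 1.68 and 1.95. Its level in ND was therefore higher in endothelial-like than in hepatocyte-like nuclei, where it was 7.60 CPM. It also exceeded hepatocyte RNA in stellate-like nuclei of ND, with a ratio of 2.90, in cholangiocyte-like and monocyte-like nuclei of both STZ-HFHC mice, and in B cell-like nuclei of STZ-HFHC 2, with a ratio of 1.59. Abcc3 exceeded it in macrophage-like nuclei of STZ-HFHC 1 alone, with ratios of 0.98, 2.29 and 1.39. Cyp7a1 was under it in ND, with ratios of 0.57 in stellate-like, 0.61 in endothelial-like and 0.63 in macrophage-like nuclei.

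**Figure D5:**
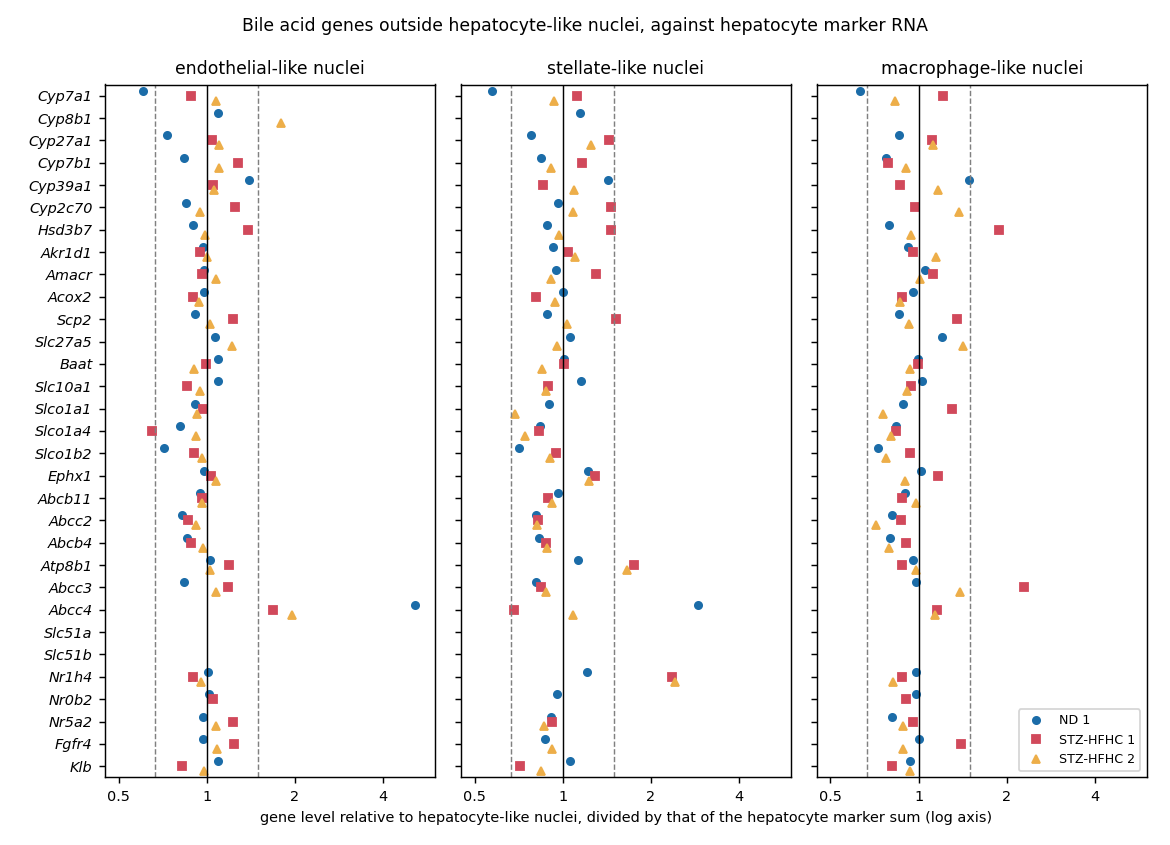
Level of each gene in endothelial-like, stellate-like and macrophage-like nuclei relative to hepatocyte-like nuclei of the same library, divided by the same ratio of the summed hepatocyte markers (log axis), for values with at least 50 UMIs. Dashed lines mark 1.5-fold from 1, and Nr1h4 in stellate-like nuclei of STZ-HFHC and Abcc4 in endothelial-like nuclei lie to the right.

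The share of nuclei with a UMI was compared after thinning each nucleus to 1000 UMIs, which left out 175, 14 and 23 shallower hepatocyte-like nuclei. Cyp7a1 was then seen in 21.7% of hepatocyte-like nuclei of ND (95% exact binomial interval 20.4 to 22.9), 6.49% in STZ-HFHC 1 (5.62 to 7.45) and 9.96% in STZ-HFHC 2 (9.11 to 10.8), and in 54.4%, 27.4% and 35.9% without thinning. In stellate-like nuclei, which should lack it, the thinned shares were 12.9%, 3.61% and 5.70%, at median depths of 4714, 2202 and 2218 UMIs. Abcc4 was seen in 0.823% of hepatocyte-like nuclei in ND (0.577 to 1.14), 10.9% in STZ-HFHC 1 (9.78 to 12.1) and 6.96% in STZ-HFHC 2 (6.25 to 7.73), beside 3.28%, 37.4% and 24.8% unthinned. Its thinned shares were 1.64%, 4.59% and 5.78% in stellate-like and 4.21%, 15.2% and 14.1% in endothelial-like nuclei, at median depths of 5266.5, 1770 and 1918 UMIs in the latter. Since Abcc4 exceeded hepatocyte RNA in both classes in ND, neither gives a background level for it. Cyp8b1 was seen in 4.99%, 0.382% and 1.05% of thinned hepatocyte-like nuclei and in 6.37%, 0.656% and 0.713% of stellate-like nuclei, so its shares did not stand apart from background. In ND, Slc27a5 and Cyp2c70 did not stand clearly apart either. Their thinned shares in hepatocyte-like, endothelial-like and stellate-like nuclei were 5.51%, 5.79% and 3.91%, and 1.35%, 1.31% and 1.00%. In the same order, Cyp27a1 was seen in 21.4%, 12.8% and 13.9% of ND nuclei, and Abcb11 in 67.7%, 61.4% and 60.1%.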

How the data were processed

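Nuclei from frozen livers of 1 ND and 2 STZ-HFHC mice were sequenced with 10x 3′ chemistry. The values deposited by the authors are raw UMI counts of genes in barcodes, made with Cell Ranger 7.0.1 on mm10 per the processing notes and not normalized. Use of intronic reads and the strand setting are not given in the sources used here, and Abcb11, Abcc4, Hsd3b7, Scp2, Slc51a and Slc51b overlap annotated antisense genes.

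The files held 30989 barcodes, of which 28336 passed limits of 200 to 5000 genes and 5% mitochondrial UMIs. Barcodes over 5000 genes numbered 889, 914 and 612 in ND, STZ-HFHC 1 and STZ-HFHC 2. Without limits and clustered anew, hepatocyte-like nuclei numbered 4571, 3724 and 5374 in the same order. Their UMIs were then 22932753, 45135774 and 44899445, a larger change in the STZ-HFHC libraries than in ND. Members and lists were chosen with earlier results of these data known. Clustering used Scanpy 1.11.5 (2000 variable genes, 30 components, 15 neighbors, Leiden resolution 1), without the members and pathway genes. Clusters took the marker list with the largest share raised 2-fold. Those with too few markers were hepatocyte-like when at least 3 of 25 hepatocyte and zone markers were at least 1.2 times their level in other clusters. Every hepatocyte-like cluster was named only by this second step. In ND clusters 2 and 15, 7 of the 25 passed in each, with 1 and 0 of the 10 hepatocyte markers among them. The numbers passing were 13, 17, 11 and 12 in clusters 1, 3, 14 and 21, with 5, 9, 4 and 8 of the 10. Clusters led by mitochondrial genes were left unnamed, among them cluster 12, with 865 ND nuclei and 8 of 10 hepatocyte markers raised. Cluster 8 was left unnamed likewise, with 19, 1073 and 637 nuclei of ND, STZ-HFHC 1 and STZ-HFHC 2 and 3 of 10 raised. There 23 of the 25 markers passed the limit of 1.2 times, with all 10 hepatocyte markers among them. The second step was revised once after clusters were seen. A first version named far fewer hepatocyte-like nuclei. Scrublet's automatic threshold marked 1, 0 and 0 nuclei and did not work, so doublets were kept.

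UMI sums per library were tested with edgeR 4.0.16 (quasi-likelihood, TMM, filterByExpr, 1 residual degree of freedom) and DESeq2 1.42.0, with 0.5 added to counts for ratios. The p-values measure no spread between mice other than that between the 2 STZ-HFHC libraries. In edgeR each gene's spread was moderated with that of other genes. The prior degrees of freedom were 4.17 in the main fit and 13.3 in the Glul-led clusters, so those p-values rest largely on spread pooled over genes. The 1.5-fold limits for zones and classes and the sets of clusters were chosen after seeing the data. All 31 members matched GENCODE M21. All members were accounted for, and of the other pathway genes those past the test or the 2-fold rule were named. Scripts were tested on simulated data.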

Additional observations from a re-analysis of the deposited data

Results flagged for a closer look

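Slc10a1, the uptake carrier, had a log2 ratio between pericentral and periportal nuclei of -0.53 in ND and of 0.28 and 0.08 in STZ-HFHC 1 and 2. Its levels were 114 against 164 CPM in ND, 81.9 against 67.6 in STZ-HFHC 1 and 93.2 against 87.9 in STZ-HFHC 2, pericentral first. Nr1h4, the bile acid sensor, had log2 ratios of -0.47 in ND and of 0.12 and 0.33 in STZ-HFHC 1 and 2. Both genes drew attention because the ND library and both STZ-HFHC libraries had opposite signs, and the difference between the conditions was not tested. With 1 ND mouse, a gradient of that mouse and of the condition cannot be told apart.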

How the results depend on the processing

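No paired analysis was possible because the ND group held 1 mouse and the labels pair no samples. With edgeR, 0 members passed in either direction with all nuclei of the library, with the clusters led by mitochondrial genes, with median of ratios size factors and with library size alone. Members called higher numbered 1 without limits on genes or mitochondrial share, without the highest 8% of doublet scores, at Leiden resolution 0.5 and in the other large clusters, 2 in the Glul-led clusters, and 3 with nuclei thinned to 1000 UMIs, without the cluster with Themis, with DESeq2 and with no filter on low counts. Members called lower numbered, for the same settings, 2, 3, 3, 4, 7, 8, 4, 7 and 8, and 1 each at resolution 2 and in nuclei gated by hepatocyte marker share. The share of all genes called is not given here for the settings of limits, doublets, resolution, thinning, low counts and gate. Their counts therefore cannot be read as particular to the members. The cause of the differences between settings was not tested. By the 2-fold rule, 2 members were lower in the Glul-led clusters alone. Leaving out 1 STZ-HFHC mouse gave 6 to 9 lower and 2 to 3 higher members, with 9 lower and 3 higher when mouse 2 was left out, and edgeR could then not be fitted for want of residual degrees of freedom. In the other settings the 2-fold rule gave 4 to 6 lower and 2 to 3 higher. Shares of all genes by this rule are given for the main comparison, the Glul-led clusters, the other large clusters and the set without Themis. The remaining counts by this rule, those with 1 mouse left out included, have no such share. They cannot be read as particular to the members. Of 465 values of single members under other settings, 45 passed the threshold and 15, of 8 members, changed the sign of the mean log2 ratio, none of them past the threshold in the main comparison. These were Akr1d1, Slco1b2 and Klb in the Glul-led clusters, and Acox2, Abcc2, Abcb4, Atp8b1 and Slc51b in settings of several kinds. The 5 pericentral and 2 periportal members numbered the same when 5 groups were made and with thinning. Clusters led by Glul, the other large clusters, the gate and the set without Themis were chosen after seeing the data. At this depth Slc51a and Slc51b could not be compared.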
